A study of Mus musculus with 2 samples.

Results

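The cells described here are the non-cycling interstitial stromal cells of the mouse testis at postnatal day (PD) 7. They were 1801 of 13789 retained cells, 558 of 5077 in a library of control testes and 1243 of 8712 in a library of *Brca1* vKO testes. The cells were chosen by measured counts. Retained cells showed 750 or more genes, and mitochondrial genes gave no more than 10% of their unique molecular identifiers (UMIs, each a distinct captured RNA molecule). Among these, a member had at least 10 UMIs per 10000 of *Dlk1*, *Dcn*, *Col3a1*, *Pdgfra* and *Tcf21* together and stayed below limits on marker sums of other cells. The limits were 10 for myoid (*Acta2*, *Myh11*, *Tagln*) and Sertoli (*Clu*, *Amhr2*, *Rhox8*, *Cst9*) markers, 5 for Leydig (*Cyp17a1*, *Cyp11a1*, *Hsd3b1*) and pericyte (*Rgs5*, *Higd1b*, *Cox4i2*) markers, 2 for germ cell markers (*Ddx4*, *Dazl*) and 1 for cell cycle genes (*Mki67*, *Top2a*, *Ube2c*, *Cdk1*, *Prc1*). What the genes of the rule show in the members follows from the choice and is given as a description only.

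The *Brca1* vKO genotype is *Brca1* f/- *Vasa-Cre*, in which a Cre expressed in germ cells deletes the floxed *Brca1* allele. The stromal cells of these mice lie outside the cells where the Cre acts, but carry the inherited deleted allele beside the floxed one. The labels give the other genotype as control without its alleles. By the study's account, 1 male mouse of each genotype was used. The study compared the genotypes to see what loss of *Brca1* in germ cells does to the testis, and it loaded more cells of the *Brca1* vKO testes. There was 1 library per genotype, so no difference between genotypes could be tested, and no p-value or standard error is given. The 95% intervals below are exact and cover counting error only, not the variation between mice or preparations.

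Between the seminiferous tubules of the testis lies a loose connective tissue, which holds vessels, macrophages, Leydig cells and fibroblast-like stromal cells. The stromal cells lay down collagen-rich matrix, secrete growth factors and include cells that can give rise to adult Leydig cells after birth. *Nr2f2*, *Tcf21* and *Pdgfra* are known as genes of such interstitial progenitors, and Desert hedgehog from Sertoli cells is known to act on them through the receptor *Ptch1*.

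Summed over members, the control library gave 8758166 UMIs and the *Brca1* vKO library 15298998. A control member had a median of 15526 UMIs and 4370 genes, and a *Brca1* vKO member 11894 UMIs and 3791 genes. Mitochondrial UMIs made up a median of 2.78% and 2.65%. No barcode was shared by members of both libraries, while 16 barcodes were shared among all retained cells. Scrublet, which scores cells by their likeness to simulated doublets, marked 3 control members (0.538%) and 2 *Brca1* vKO members (0.161%), against 3.17% and 2.86% of all retained cells. They were kept, except in an alternative.

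Few cells lay near the limit on stromal markers. The sum was 10 to 15 in 4 control and 8 *Brca1* vKO members, 5 to 10 in 1 and 2 cells that failed only on this limit, and had medians of 86.0 and 79.7 in the members. The limit on the cell cycle was crowded. A sum of 0.5 to 1 was found in 143 and 382 members, and 1 to 1.5 in 50 and 158 cells just outside. Of the members, 66.7% in the control (62.6 to 70.6) and 68.1% in the *Brca1* vKO library (65.4 to 70.7) had no UMI of the 5 cell cycle genes.

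*Brca1* itself was read first. The members had 27 *Brca1* UMIs in the control library, or 3.08 UMIs per 1000000 (CPM; 95% Poisson interval 2.03 to 4.49). They had 31 UMIs in the *Brca1* vKO library, or 2.03 CPM (1.38 to 2.88). The ratio was 0.657 with an exact conditional interval of 0.380 to 1.15, so no difference was detectable at this depth. The cycling stromal cells had 51.7 and 25.5 CPM of *Brca1*, and the germ cells 69.2 and 43.2 CPM. A count of the gene cannot tell transcripts of a deleted allele from those of an intact one. *Brca1* lies on the minus strand of chromosome 11 at chr11:101488764-101551955 in GRCm38, the assembly of mm10.

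The label was checked on 10 stromal genes that the choice did not use. Of these, *Pdgfrb* was low, at 8.31 to 24.6 CPM in the control and 7.60 to 17.6 CPM in the *Brca1* vKO sub-clusters described below. The genes that follow went with the label in both libraries. *Meg3*, an imprinted long non-coding RNA, had 2471 CPM in control and 2586 CPM in *Brca1* vKO members. The fibrillar collagen genes *Col1a2* and *Col1a1* had 2113 and 2004 CPM in control and 2073 and 2008 CPM in *Brca1* vKO members. In the Sertoli-gated cells, which should lack these genes, *Meg3* was found in 2.04% and 3.61% of cells thinned to 5000 UMIs. The Sertoli-gated cells were held below the limit on stromal markers, so low shares there come partly from that choice. In myoid cells *Meg3* was found in 72.0% and 80.9% and *Col1a1* in 97.95% and 97.3%, so these genes set the members apart from Sertoli-gated cells more than from myoid cells. *Meg3* was found in 98.7% and 98.9% of the members at that depth, with 14 control and 26 *Brca1* vKO members left out as too shallow. Both groups had a UMI of the progenitor transcription factor *Nr2f2* in 91.5% and 88.9% of members, against 1.75% and 2.07% of Sertoli-gated cells. Without thinning, the *Nr2f2* shares were 98.9% and 98.2% of members, at the median depths given above, and 4.53% and 6.21% of Sertoli-gated cells, at medians of 16494 and 13166 UMIs. The myoid cells also had *Nr2f2*, in 92.3% and 86.9% of cells at 5000 UMIs.

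**Figure D1:**
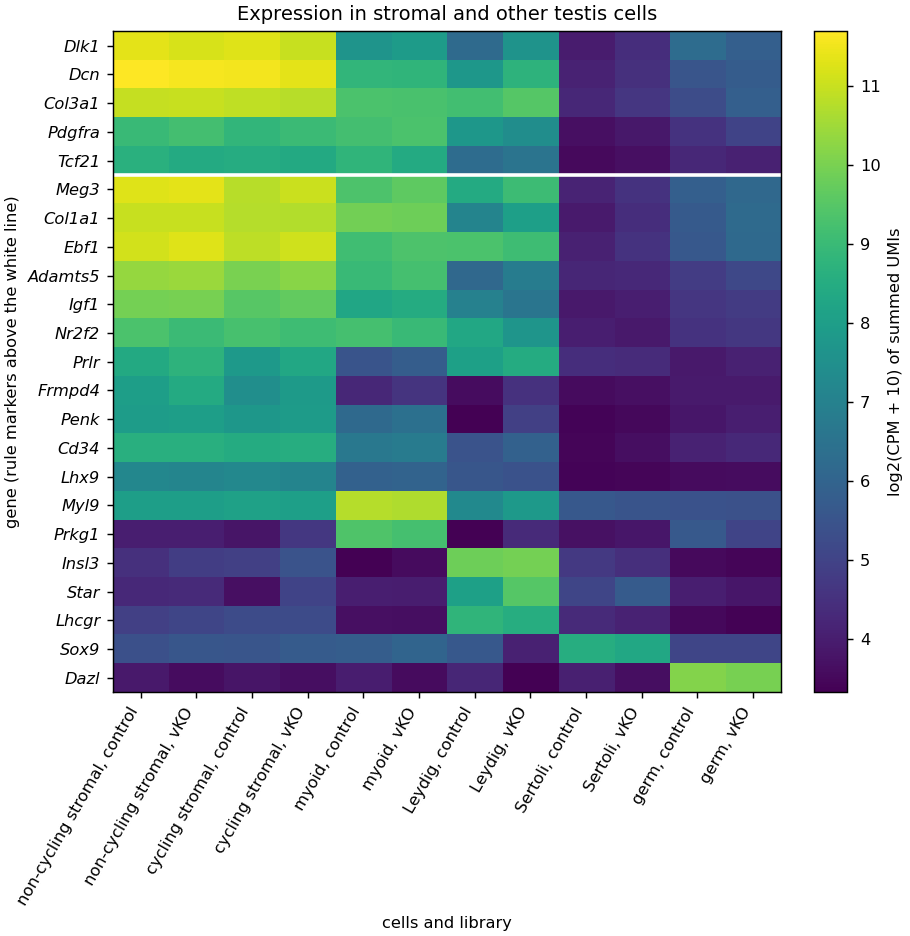
Colour gives log2(CPM + 10) of summed UMIs for 23 genes (rows) in 6 kinds of cells of the control and *Brca1* vKO (vKO) libraries (columns). The genes below the white line, from *Meg3* to *Lhx9*, were at higher levels in both stromal columns than in Sertoli and germ cells in each library.

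Markers of other cells varied in level. The rule limited sums of myoid, pericyte and Sertoli markers, so the levels of those lists come partly from the choice of cells. The 8 adventitial fibroblast markers summed to 804 and 769 CPM in members, above the 312 and 320 CPM of myoid cells and the 206 and 220 CPM of Sertoli-gated cells. Of these, *Cd34*, a surface sialomucin gene, had 382 and 375 CPM, *Sema3c* 220.5 and 219 CPM and *Cd248* 146 and 135 CPM, while *Pi16* had 6.28 and 6.28 CPM and *Dpp4* 0 and 1 UMI. The rete and coelomic epithelium list summed to 0.343 and 1.05 CPM. The myoid list summed to 605 and 589 CPM and the pericyte list to 36.4 and 27.5 CPM. The 6 endothelial markers summed to 167 and 182 CPM, of which *Cdh5*, a cadherin of vessel junctions, made up 158 and 166 CPM, while *Cldn5*, *Kdr* and *Flt1* were each below 1 CPM. The Sertoli list, which holds genes that the rule limits, summed to 658 and 761 CPM. Of this, *Inhba*, an activin subunit gene that the rule did not use, made up 424 and 385 CPM.

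The peritubular myoid cells, contractile cells that wrap the tubules, were compared with the members next. A gene counted as different where its level differed at least 2-fold in the same direction in both libraries. Of 14162 genes, 229 (1.62%) were higher in the members and 358 (2.53%) were lower. The myoid cells had no limit on cell cycle genes, so such genes can be among the lower ones. *Frmpd4*, which encodes a scaffold protein, had 251 and 340 CPM in members and 9.06 and 13.7 CPM in myoid cells. *Kctd16*, an auxiliary subunit gene of GABA-B receptors, had 241 and 288 CPM against 11.5 and 12.8. The prolactin receptor gene *Prlr* had 328 and 411 CPM in members and 35.4 and 44.9 CPM in myoid cells. *Dpt*, which encodes the matrix protein dermatopontin, had 136 and 126 CPM against 6.25 and 5.57. *Clec3b* (tetranectin), *Il1rapl2*, *Adgrb3*, *Lvrn*, *Tppp3* and the metalloprotease gene *Adam12* were the others of the 10 leading genes, and the members were above the myoid cells by 2.74 to 3.51 on the log2 scale in each of them in both libraries.

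Since the limits used *Acta2*, *Myh11* and *Tagln*, lower levels of other contractile genes come partly from the same choice. Among the 10 leading genes that were lower in the members, *Prkg1*, the cGMP-dependent kinase of smooth muscle, had 6.28 and 6.14 CPM in members and 662 and 585 CPM in myoid cells. *Myocd*, a coactivator of smooth muscle genes, had 1.94 and 1.63 CPM against 230 and 148. *Tnnt2* had 1.14 and 1.83 CPM against 207 and 147, and the basement membrane collagen gene *Col4a3* had 78.3 and 66.4 CPM against 952 and 890. For each of these 4 genes, both libraries of members lay below both libraries of myoid cells.

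The Leydig-gated cells, which make androgens, were few, with 24 control and 69 *Brca1* vKO cells. Of 12630 genes compared, 384 (3.04%) were at least 2-fold higher in the members in both libraries, and 349 (2.76%) were lower. The calcium-binding protein gene *S100a6* had 956 and 722 CPM in members and 13.0 and 50.5 CPM in Leydig cells. *Adamts5*, an aggrecan-cleaving protease gene, had 1309 and 1381 CPM against 60.6 and 103. *Penk*, the proenkephalin gene, had 236 and 249 CPM against 0 and 20.2, and *Mfap5*, a microfibril gene, had 158 and 129 CPM against 0 and 3.61. A level of 0 in the 24 control Leydig cells rests on 462231 UMIs. The same sum of *Cyp17a1*, *Cyp11a1* and *Hsd3b1* set the limit for members and the gate for Leydig cells. Lower levels of other Leydig genes in the members therefore come partly from that choice. The Leydig-gated cells also had no limit on cell cycle genes. *Ren1* (renin) had 3.08 and 5.29 CPM in members and 1984 and 2354 CPM in Leydig cells. *Insl3*, the Leydig cell peptide hormone, had 12.5 and 18.4 CPM against 907 and 975. *Lhcgr*, the luteinizing hormone receptor, had 19.9 and 23.4 CPM against 433 and 365, and *Kit* had 8.45 and 10.0 CPM against 307 and 243.

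A low level of Leydig genes was still read in the members. At 5000 UMIs, *Insl3* was found in 3.86% of control and 3.70% of *Brca1* vKO members, against 1.55% and 1.11% of Sertoli-gated cells. The *Lhcgr* shares were 7.54% and 6.25% of members, against 1.26% and 0.902%. *Nr5a1*, a regulator of steroid synthesis, was found in 11.95% and 13.4% of members, while the Sertoli-gated cells, which also use this gene, had 25.4% and 25.04%.

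Against the cycling stromal cells, which passed the same limits other than that on the cell cycle, 210 of 13229 genes (1.59%) were at least 2-fold lower in the members in both libraries. None (0%) was at least 2-fold higher. Since the limit used 5 cell cycle genes, the lower levels of other cell cycle genes come from the same choice. *Hist1h2ap*, a replication-dependent histone gene, had 5.71 and 12.6 CPM in members and 495 and 438 CPM in cycling cells. *Cenpf*, a kinetochore gene, had 6.97 and 6.14 CPM against 317 and 215. Among genes higher in members, *Ogn*, a small leucine-rich proteoglycan gene, had 515 and 466 CPM against 281 and 307, and *Hgf*, the hepatocyte growth factor gene, had 54.9 and 29.0 CPM against 23.6 and 21.8. *Ddit3*, a stress-induced transcription factor gene, had 115 and 156 CPM in members and 58.8 and 119 CPM in cycling cells.

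The share of members depended on what it was taken of. Of all retained cells they made up 10.99% among control cells (Clopper-Pearson interval 10.1 to 11.9) and 14.3% among *Brca1* vKO cells (13.5 to 15.02), and the ratio was 1.30 (1.17 to 1.44). Intervals of such ratios treat both counts as Poisson, which makes them slightly wide. The libraries differed in germ cells, with 3967 of 5077 control and 8429 of 8712 *Brca1* vKO cells below the germ limit. Of the cells below the germ limit, the members were 14.1% (13.0 to 15.2) and 14.8% (14.0 to 15.5), a ratio of 1.05 (0.948 to 1.16). This interval includes equal shares, and lowering the mitochondrial limit to 5% moved the ratio to 0.932.

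The cycling stromal cells made up 4.71% (4.08 to 5.42) and 6.41% (5.89 to 6.95) of the cells below the germ limit, a ratio of 1.36 (1.15 to 1.61). Members were 74.9% (71.6 to 78.0) of the control stromal cells and 69.7% (67.5 to 71.8) of the *Brca1* vKO stromal cells, and the ratio was 0.931. Depth moved with this split. At 2000 UMIs per cell, 18.6% (15.9 to 21.6) of control and 17.0% (15.3 to 18.8) of *Brca1* vKO stromal cells had a cell cycle UMI, and at 5000 UMIs 25.1% (22.0 to 28.5) and 31.6% (29.5 to 33.9). No order of the libraries is read from these shares.

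**Figure D2:**
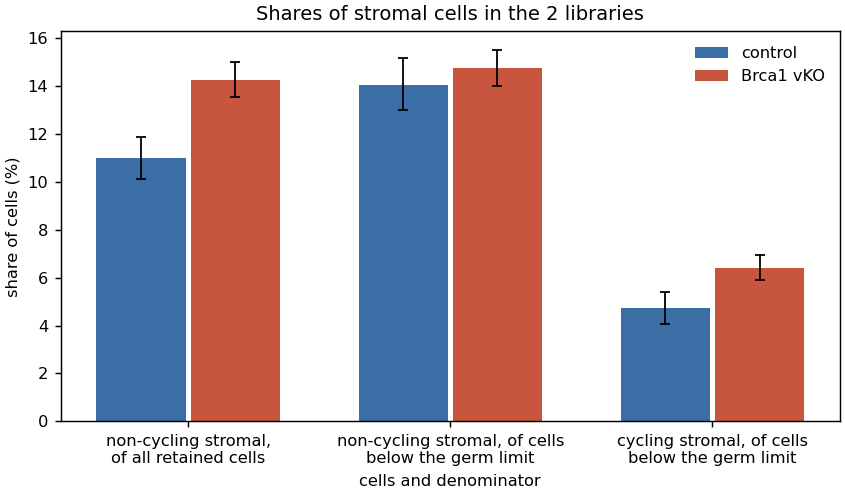
Bars give the share of cells in percent in the control and *Brca1* vKO libraries, and whiskers are exact 95% intervals that cover counting error only. The members' intervals are apart when taken of all retained cells (10.99% and 14.3%) and overlap when taken of cells below the germ limit (14.1% and 14.8%).

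The levels of most genes in the members differed little between the libraries. For each of 12382 genes with at least 50 UMIs, the log2 ratio of CPM, *Brca1* vKO over control, was taken with a pseudocount of 10 CPM. It had a median of -0.0040, and 90% of genes lay between -0.22 and 0.21. At least 1.5-fold higher levels in the *Brca1* vKO members were found for 36 genes (0.291%), and at least 1.5-fold lower levels for 32 genes (0.258%). Pseudocounts lower the change of weakly expressed genes, and with 1 CPM the counts were 230 and 188.

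Single cells carried part of these genes. In 9 of the 36 higher genes and 14 of the 32 lower genes, 1 cell held at least 50% of the UMIs of the library with the higher level. The haemoglobin genes had the lowest log2 ratios on the scale with a pseudocount of 10 CPM, from -3.54 to -2.72, and from -1.79 to -0.83 once the doublets marked by Scrublet were removed. *Hba-a1* had 415 CPM in control and 26.5 CPM in *Brca1* vKO members, and *Hbb-bs* had 610 and 45.3 CPM. One control cell held 2723 of the 3638 control UMIs of *Hba-a1*, and 1 control cell held 7996 of the 10915 UMIs of the red blood cell list. The neutrophil genes were reversed. *S100a9* had 0 control UMIs (exact upper limit 0.421 CPM) and 46.5 CPM in *Brca1* vKO members, with 610 of its 711 UMIs in 1 cell. The exact interval of its ratio starts at 110, and its level was 136-fold that of a floor of 3 control counts (0.343 CPM). *S100a8* had 2 and 567 UMIs, 469 of them in 1 cell, and a ratio of 162 (44.7 to 1343). For the macrophage complement gene *C1qa*, 92 of 97 control UMIs lay in 1 cell.

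The summed red blood cell markers were at 1246 and 86.3 CPM in the members, at 2079 and 94.4 CPM in myoid cells and at 531 and 134 CPM in Sertoli-gated cells. The neutrophil markers were at 0.799 and 108 CPM in members, 0.937 and 211 CPM in myoid cells and 4.88 and 94.8 CPM in Sertoli-gated cells. The macrophage markers were at 43.5 and 6.21 CPM in members, and at 3.65 and 30.1 CPM in myoid cells. All 4 haemoglobin genes were still at least 1.5-fold lower in the *Brca1* vKO library once the members with 10 or more UMIs of these 3 lists were left out, with 507 control and 1242 *Brca1* vKO members remaining. For *Hba-a1* the levels were then 86.1 and 26.6 CPM, and for *C1qa* 0.504 and 0.327 CPM. Of the 36 higher genes 27 stayed at least 1.5-fold higher, and of the 32 lower genes 20 stayed lower. These still include 5 higher and 4 lower genes of which 1 cell had held at least 50% of the UMIs, such as the mast cell protease genes *Cma1* and *Mcpt4*, with 73 of 81 and 81 of 87 *Brca1* vKO UMIs in 1 cell. Leaving these cells out was decided on after seeing the data.

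**Figure D3:**
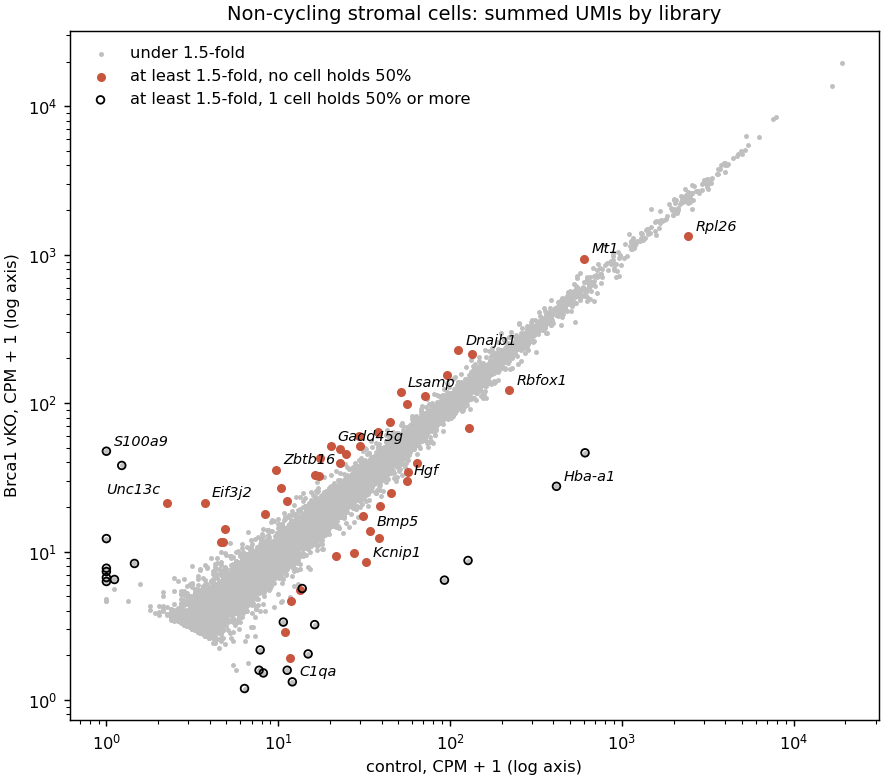
Each point is a gene, with its level in control (x axis) and *Brca1* vKO (y axis) members as CPM + 1 on log axes. Filled points mark genes that differed at least 1.5-fold, and open circles those of them in which 1 cell held at least 50% of the UMIs, 9 higher and 14 lower.

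Among the higher genes whose UMIs were spread over many cells, *Unc13c*, a gene of synaptic vesicle priming, had 1.26 CPM in control (11 UMIs in 8 cells) and 20.3 CPM in *Brca1* vKO members (310 UMIs in 113 cells). The ratio was 16.1 (8.89 to 32.7). At 5000 UMIs, *Unc13c* was found in 0.551% of control and 5.67% of *Brca1* vKO members, against 0.485% and 0.478% of Sertoli-gated cells, so the control share was near background. In myoid cells the *Unc13c* shares were 1.90% and 6.46%.

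*Zbtb16* encodes PLZF, a zinc-finger repressor best known here as a mark of undifferentiated spermatogonia. Its level was 8.68 CPM in control and 34.6 CPM in *Brca1* vKO members, a ratio of 3.99 (3.13 to 5.14), and its UMIs lay in 56 and 340 cells. The 8 listed germ cell markers, *Zbtb16* among them, summed to 27.1 and 49.3 CPM. *Dazl* had 4.91 and 2.03 CPM and *Ddx4* 2.28 and 0.784 CPM in the same cells, both below the germ limit by the choice of cells, and *Sycp1* and *Kit*, which the choice did not use, had 1.71 and 0.719 CPM and 8.45 and 10.0 CPM. At 5000 UMIs, *Zbtb16* was found in 3.13% (1.83 to 4.96) and 14.5% (12.5 to 16.6) of members, against 0.873% and 0.478% of Sertoli-gated cells. Its log2 ratio was 1.26 in members, 0.75 in cycling stromal cells, 0.42 in myoid cells and -0.45 in Leydig cells. The Leydig value rests on few UMIs, at 8.65 CPM in 24 control cells and 3.61 CPM in 69 *Brca1* vKO cells.

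*Lsamp*, which encodes a neuronal adhesion protein, had 50.7 and 118 CPM, a ratio of 2.33 (2.10 to 2.59). At 5000 UMIs, *Lsamp* was found in 15.1% and 27.0% of members, against 2.8% and 2.9% of Sertoli-gated cells. *Gadd45g*, a stress-induced gene linked to growth arrest, had 19.2 and 50.3 CPM (ratio 2.62, 2.22 to 3.12). The heat shock co-chaperone gene *Dnajb1* had 111 and 226 CPM (ratio 2.04, 1.90 to 2.20). *Nrxn3* and *Dcc*, both known from neurons, had 133 and 70.9 CPM in control and 215 and 111 CPM in *Brca1* vKO members, and *Dcc* fell short of 1.5-fold without the members rich in blood cell UMIs (log2 ratio 0.53). The log2 ratio of *Gadd45g* was 1.05 in members and 0.066 in cycling stromal cells, and that of *Lsamp* was 1.08 and 0.90. Differences between these cell classes were not tested.

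The Sertoli genes *Clu*, *Cst9*, *Cst12*, *Wfdc10* and *Inha* were also higher in *Brca1* vKO members. *Cst12* had 21.9 and 48.1 CPM, *Wfdc10* 9.36 and 25.7 CPM and *Inha* 15.4 and 31.7 CPM, while *Clu* and *Cst9* were held below a limit by the choice of cells. *Amh* and *Dhh*, which Sertoli cells also express, had 3.20 and 6.41 CPM and 2.06 and 3.86 CPM. The log2 ratio of *Cst12* was 0.86 in members, 0.97 in cycling stromal, 0.92 in myoid, 0.95 in Leydig-gated and 0.06 in Sertoli-gated cells. In the same order it was 0.88, 0.68, 0.78, 0.92 and -0.091 for *Wfdc10* and 0.71, 0.64, 0.64, 1.13 and 0.11 for *Inha*. For *Clu* it was 0.84 in members and -0.11 in Leydig-gated cells. Whether Sertoli RNA in the droplets has a part in these genes was not tested.

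Among the lower genes, *Kcnip1*, a potassium channel interacting protein, had 31.3 CPM in control and 7.45 CPM in *Brca1* vKO members, a ratio of 0.238 (0.190 to 0.297), in 150 and 103 cells. At 5000 UMIs, *Kcnip1* was found in 12.3% and 3.04% of members, and the *Brca1* vKO share was close to the 2.33% of Sertoli-gated cells. In myoid cells *Kcnip1* was found in 53.6% and 31.1%. *Pttg1*, the securin gene, had 37.6 and 11.4 CPM (ratio 0.303, 0.251 to 0.365). The growth factor gene *Bmp5* had 33.0 and 12.7 CPM (ratio 0.384, 0.319 to 0.463), and *Hgf* had 54.9 and 29.0 CPM (ratio 0.527, 0.462 to 0.601), with 95 of its 481 control UMIs in 1 cell. The splicing regulator *Rbfox1* had 219 and 121 CPM (ratio 0.553, 0.518 to 0.590). Its log2 ratio was -0.81 in members, -0.11 in cycling stromal cells, 0.78 in myoid cells and 4.01 in Sertoli-gated cells. *Slc15a2*, a peptide transporter gene, had 10.7 and 0.915 CPM, and *Cxcl10*, a chemokine gene, 26.7 and 8.82 CPM, with 66 of 234 control UMIs in 1 cell. Without the members rich in blood cell UMIs, *Cxcl10* had 17.6 and 8.83 CPM and fell short of the 1.5-fold limit (log2 ratio -0.55).

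The ribosomal protein gene *Rpl26* combined depth with size. It had 2437 CPM in control and 1337 CPM in *Brca1* vKO members (21346 and 20459 UMIs in 556 and 1239 cells), a ratio of 0.549 (0.538 to 0.559). The log2 ratio was -0.86 in members, -0.87 in cycling stromal cells, -0.89 in myoid cells, -0.98 in Leydig cells, -0.91 in Sertoli-gated cells and -0.61 in germ cells. *Eif3j1* and *Eif3j2*, near-identical genes for a subunit of the translation initiation factor eIF3, moved in opposite directions in the members. *Eif3j1* had 56.1 and 33.2 CPM and *Eif3j2* 2.74 and 20.3 CPM. In Sertoli-gated cells their log2 ratios were -0.49 and 1.38. Reads of such copies, and of the pseudogenes that ribosomal protein genes have, can be counted under one another, so these levels are uncertain. By the study's account, controls were littermates. A difference in strain background between the mice was not tested, and it cannot be told apart from genotype with 1 mouse each.

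By chromosome, 9 of the 32 lower genes (28.1%) and 0 of the 36 higher genes lay on chromosome 11, the chromosome of *Brca1*, which held 960 of the 12374 compared genes with a position (7.76%). The 9 were *Hba-a1*, *Hba-a2*, *Kcnip1*, *Pttg1*, *Rpl26*, *Gpx3*, *2810001G20Rik*, *Plek* and *Ccl2*, of which 7 stayed lower without the members rich in blood cell UMIs. For *Hba-a1*, *Hba-a2*, *Plek* and *Ccl2*, 1 cell held 74.85%, 78.2%, 52.7% and 90% of the control UMIs. *Kcnip1* lies at chr11:33629339-33993152 and *Rpl26* at chr11:68901583-68906989 in GRCm38. The part of the chromosome in these levels was not tested.

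The metallothionein genes, which encode small metal-binding proteins, were both above the control. *Mt1* had 604 CPM in control and 941 CPM in *Brca1* vKO members, a ratio of 1.56 (1.51 to 1.61), and was found in 43.0% and 55.4% of members at 5000 UMIs, against 37.7% and 42.8% of Sertoli-gated cells. *Mt2* had 21.9 and 33.0 CPM, a ratio of 1.51 (1.27 to 1.79), below the 1.5-fold limit on the scale with a pseudocount (log2 ratio 0.43). The log2 ratio of *Mt1* was 0.71 in cycling stromal cells, 0.77 in myoid cells, -0.011 in Sertoli-gated cells and 0.66 in germ cells. The windows around the RefSeq start sites are shown because metallothionein genes are known to answer to metals through metal response elements. Their core was searched only as TGCACTC or TGCGCTC, on both strands, and other forms of it were not marked. Each window, from the RefSeq annotation of GRCm38.p6, runs from 250 bases before to 30 bases after the start, on the plus strand at chr8:94178839-94179118 (*Mt1*) and chr8:94172368-94172647 (*Mt2*), with matches in capitals. GENCODE, used for gene positions, places the start of *Mt2* further downstream, at base 94172664, beyond the end of the window.
Mt1: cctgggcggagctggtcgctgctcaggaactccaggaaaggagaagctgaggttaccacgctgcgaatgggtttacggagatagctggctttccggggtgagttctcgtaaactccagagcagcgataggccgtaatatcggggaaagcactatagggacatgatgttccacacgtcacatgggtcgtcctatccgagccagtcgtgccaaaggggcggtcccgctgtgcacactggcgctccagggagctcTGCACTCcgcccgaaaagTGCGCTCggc
Mt2: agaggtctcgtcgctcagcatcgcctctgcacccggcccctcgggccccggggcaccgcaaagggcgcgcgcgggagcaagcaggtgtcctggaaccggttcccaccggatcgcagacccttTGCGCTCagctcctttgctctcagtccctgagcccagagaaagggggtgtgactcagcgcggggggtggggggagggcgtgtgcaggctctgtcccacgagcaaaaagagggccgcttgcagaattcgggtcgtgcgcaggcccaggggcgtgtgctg
The *Mt1* window held TGCACTC at position 253 and TGCGCTC at position 271, both past the 250 bases before the start. The *Mt2* window held TGCGCTC at position 123. Of 32851 windows of this length, 2001 (6.09%) held either motif, and a match is a description of the letters only.

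Gene lists were then read in the members. With 0.291% of all compared genes past 1.5-fold higher and 0.258% lower, lists of this size hold few or no such genes by that share, and a count of 0 says nothing particular about a list. Of 28 compared genes of fibrillar collagens and their assembly, 0 were at least 1.5-fold higher and 0 lower, with a median log2 ratio of -0.076 beside the -0.0040 of all genes. *Sparc*, a collagen-binding glycoprotein gene, had 2927 and 2741 CPM. The lowest ratios were those of *Aspn*, a small leucine-rich proteoglycan gene, with 23.0 and 12.3 CPM, and of *Lox*, a collagen cross-linking enzyme gene, with 32.2 and 19.4 CPM. The 16 basement membrane and filament collagen genes, with *Lama2* at 1328 and 1298 CPM and *Col4a1* at 605 and 529 CPM, had a median of -0.073. The 13 elastic fibre genes had a median of -0.084, with *Mfap4* at 882 and 916 CPM and elastin (*Eln*) at 130 and 89.7 CPM. Of 20 proteases and inhibitors, 0 passed 1.5-fold, with a median of 0.013. *Htra3*, a serine protease gene, had 452 and 457 CPM.

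Of 23 compared transcription factors of interstitial progenitors, 0 were at least 1.5-fold higher and 0 lower (median -0.025). *Ebf1*, an early B cell factor gene expressed in many stromal cells, had 2222 and 2478 CPM, *Nr2f2* 628 and 515 CPM and the Krüppel-like transcription factor gene *Klf4* 544 and 697 CPM. *Lhx9*, a LIM homeobox gene of the early gonad, had 137 and 131 CPM. All 12 Hedgehog pathway genes were compared, and 0 passed 1.5-fold in either direction (median -0.047). The receptor gene *Ptch1* had 366 and 297 CPM, the co-receptor gene *Gas1* 187 and 257 CPM and the antagonist gene *Hhip* 175 and 156 CPM. *Gli1*, a transcription factor and target of the pathway, had 41.7 and 38.2 CPM. The 12 compared Leydig differentiation genes had a median of 0.084 (0.025 with the stricter rule and 0.14 with cells of 5000 to 20000 UMIs) with 8 above and 4 below 0, and again 0 passed 1.5-fold. *Fdx1*, the ferredoxin gene of steroid synthesis, had 109 and 123 CPM.

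The IGF axis (14 compared, median -0.016) held *Igf1* at 972 and 991 CPM and the binding protein genes *Igfbp7* at 1138 and 1099 CPM and *Igfbp6* at 928 and 867 CPM. Of 29 compared genes of the TGF beta and BMP axis, 0 were higher and 1, *Bmp5*, was lower, with a median of -0.064. In this list the BMP target *Id3* had 643 and 638 CPM and *Fstl1*, a follistatin-like gene, 566 and 491 CPM. The WNT axis (23 compared, median -0.068), the PDGF and VEGF axis (12 compared, median -0.036) and the imprinted growth genes (22 compared, median 0.018) had 0 genes past 1.5-fold. Among the WNT ligands, *Wnt6* had 173 and 174 CPM and *Wnt5a* 148 and 124 CPM. *Nrp1*, a co-receptor for VEGF and semaphorins, had 185 and 207 CPM. The imprinted genes *Gnas* and *Peg3* had 1985 and 1844 CPM and 891 and 975 CPM.

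Of 11 compared genes for secreted factors that act on germ cells, 0 passed 1.5-fold (median -0.031, but 0.087 with the stricter rule and 0.028 with cells weighted equally, so its sign is not settled). *Cxcl12*, a chemokine that keeps stem cells in place in many niches, had 487 and 557 CPM in control and *Brca1* vKO members. At 5000 UMIs, *Cxcl12* was found in 78.1% and 80.5% of them, against 0.679% and 1.75% of Sertoli-gated cells. Its level was 124 and 153 CPM in myoid cells. The stem cell factor gene *Kitl* had 117 and 131 CPM, while *Gdnf* was at 3.65 and 3.01 CPM. The 14 retinoid genes had a median of 0.054, with the retinoic acid degrading enzyme gene *Cyp26b1* at 332 and 388 CPM and the synthesizing enzyme gene *Aldh1a1* at 209 and 221 CPM. The 12 compared hormone receptor genes had a median of 0.025 and 0 past 1.5-fold. *Prlr* had 328 and 411 CPM, the thyroid hormone receptor gene *Thra* 265 and 265 CPM and the growth hormone receptor gene *Ghr* 241 and 232 CPM. Of 11 complement and chemokine genes, only *Ccl2* passed 1.5-fold, with 54 of its 60 control UMIs in 1 cell.

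Of 25 compared genes of DNA repair and p53 targets, 1 (*Gadd45g*) was at least 1.5-fold higher and 0 were lower, with a median of -0.051. *Trp53* itself had 88.0 and 87.7 CPM, its target and inhibitor *Mdm2* 31.3 and 31.4 CPM, and the arrest gene *Cdkn1a* 20.6 and 23.8 CPM. The pro-apoptotic gene *Bax* had 82.7 and 90.4 CPM. Of 23 S phase genes and 21 cyclin and CDK inhibitor genes, 0 passed 1.5-fold, with medians of 0.033 and 0.016. The CDK inhibitor gene *Cdkn1c* had 239 and 276 CPM. The interferon response list (17 compared, median -0.053) had 0 genes past 1.5-fold, and *Ifitm1* had 317 and 220 CPM. Of 21 hypoxia and glycolysis genes, 1 was higher, the glucose transporter gene *Slc2a1*, with 28.9 and 50.2 CPM. Without the members rich in blood cell UMIs it fell short of 1.5-fold, with a log2 ratio of 0.58. The contractile and actin genes (20 compared) and the 13 mitochondrially encoded genes had 0 past 1.5-fold and medians of -0.047 and -0.082.

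The immediate early and stress genes had a median of 0.13 (0.095 with the stricter rule and 0.19 with cells of 5000 to 20000 UMIs), with 23 of 27 genes above 0, 1 (*Dnajb1*) at least 1.5-fold higher and 0 lower. These genes are known to be induced within minutes of stimulation, including by tissue digestion. *Fos* had 5254 and 6275 CPM, *Jund* 2552 and 2939 CPM and *Junb* 2412 and 2644 CPM. *Ier2* had 1471 and 2046 CPM. The inducible heat shock genes *Hspa1a* and *Hspa1b* ran the other way, with 35.97 and 47.3 CPM in control and 23.7 and 28.8 CPM in *Brca1* vKO members. The part of digestion in these levels was not tested.

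**Figure D4:**
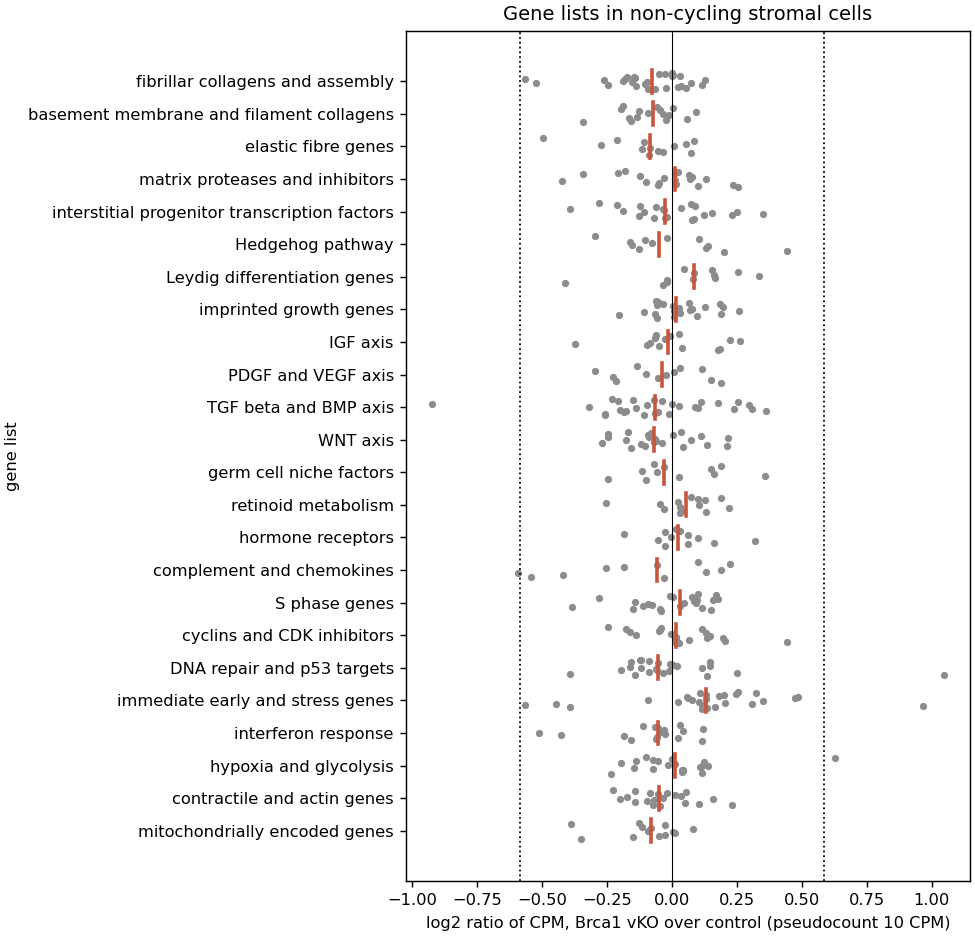
Points give the log2 ratio of CPM (*Brca1* vKO over control, pseudocount 10 CPM) for the compared genes of 24 lists, red bars the list medians, and dotted lines the 1.5-fold limits. Medians lay between -0.084 and 0.13, and *Bmp5*, *Ccl2*, *Gadd45g*, *Dnajb1* and *Slc2a1* were the only points outside the limits.

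The members were also divided by their own profiles, with the genes of the rule left out and each library centred. Leiden clustering gave 4 sub-clusters, numbered 0 to 3 by size, and each held cells of both libraries. Their leading genes chose them and are a description. In sub-cluster 0 were 211 cells of the control and 465 of the *Brca1* vKO library, 37.8% (33.8 to 42.0) and 37.4% (34.7 to 40.2) of members. Its leading genes included *Atf3*, a stress transcription factor gene, at 338 CPM inside against 52.7 CPM in other members, *Ugdh* and the hyaluronan synthase gene *Has2*. *Jun* and *Dusp1*, a phosphatase gene of MAP kinase feedback, were also among the 10 leading genes. *Fos* had 8614 and 9613 CPM in this sub-cluster, 6340 and 7557 CPM in sub-cluster 3 and between 1786 and 2683 CPM in sub-clusters 1 and 2. Some immediate early genes were higher in sub-cluster 3, where *Btg2* had 4115 and 4384 CPM against 2899 and 3258 CPM in sub-cluster 0, and *Nr4a1* 712 and 727 CPM against 452 and 438 CPM.

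Sub-cluster 1 held 123 and 328 cells, 22.0% (18.7 to 25.7) and 26.4% (24.0 to 28.9). *S100a9*, *S100a8* and *Ngp* came first by fold, and most of their UMIs came from the 1 *Brca1* vKO cell named above. The next leading genes were *Lrrtm4*, the BMP receptor gene *Bmpr1b*, at 28.3 against 6.53 CPM, *Gabrb2* and *Ntrk3*. *Col1a1*, *Adamts5*, *Mmp16* and *Igf1* were higher here than in the other sub-clusters in each library, while the matrix gene *Sparc* was highest in sub-cluster 0, at 3483 and 3152 CPM. *Col1a1* had 3035 and 2828 CPM, against 2267 and 2185 CPM in sub-cluster 0, 1467 and 1673 CPM in sub-cluster 2 and 859 and 938 CPM in sub-cluster 3. *Adamts5* had 1873 and 1880 CPM, *Mmp16*, a membrane metalloprotease gene, 264 and 207 CPM, and *Igf1* 1333 and 1419 CPM.

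Sub-cluster 2 held 136 and 224 cells, 24.4% (20.9 to 28.2) and 18.02% (15.9 to 20.3). Haemoglobin genes led it, with *Hbb-bs* at 2125 CPM in the control and 46.6 CPM in the *Brca1* vKO cells, again largely from 1 control cell. The dynein gene *Dync1i1*, at 59.1 against 24.7 CPM, and the BMP antagonist gene *Chrdl1*, at 21.0 against 9.50 CPM, followed. *Atf3* was lowest here, at 12.8 and 25.5 CPM, and *Ptch1* highest, at 506 and 389 CPM. With haemoglobin and neutrophil genes left out of the clustering, which was decided on after seeing the data, 4 sub-clusters were found again and the shares of sub-cluster 2 were 23.5% and 17.5%.

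Sub-cluster 3 held 88 and 226 cells, 15.8% (12.8 to 19.1) and 18.2% (16.1 to 20.4), and was led by *Aldh3a1*, at 33.0 CPM against 1.03 CPM, *Insl3*, *Kit*, *Rasd1*, *Nppc* and *Mt2*. Several Leydig genes were highest here, but *Nr5a1* was not, with 30.7 and 38.9 CPM against 31.1 and 40.2 CPM in sub-cluster 2. *Insl3* had 48.0 and 69.6 CPM in sub-cluster 3, 12.8 and 13.1 CPM in sub-cluster 2 and at most 4.37 CPM in sub-clusters 0 and 1. *Lhcgr* had 55.6 and 68.1 CPM in sub-cluster 3 and 36.8 and 34.3 CPM in sub-cluster 2, and *Star*, the cholesterol carrier of steroid synthesis, had 28.8 and 33.2 CPM in sub-cluster 3. *Bmp2* had 53.1 and 45.3 CPM against at most 9.97 CPM in the other sub-clusters. The contractile gene *Myl9* was also highest in sub-cluster 3, at 429 and 406 CPM. So were *Acta2*, at 210 and 155 CPM, and *Myh11*, at 49.2 and 44.3 CPM, both limited by the rule. Levels of *Col1a1*, *Cxcl12* and *Igf1* were lower here than in the other sub-clusters, with *Col1a1* as above, *Cxcl12* at 171 and 154 CPM and *Igf1* at 520 and 468 CPM. These levels of *Insl3* stayed far below the 907 and 975 CPM of the Leydig-gated cells. Scrublet marked 1.14% of the control and 0% of the *Brca1* vKO cells of sub-cluster 3.

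**Figure D5:**
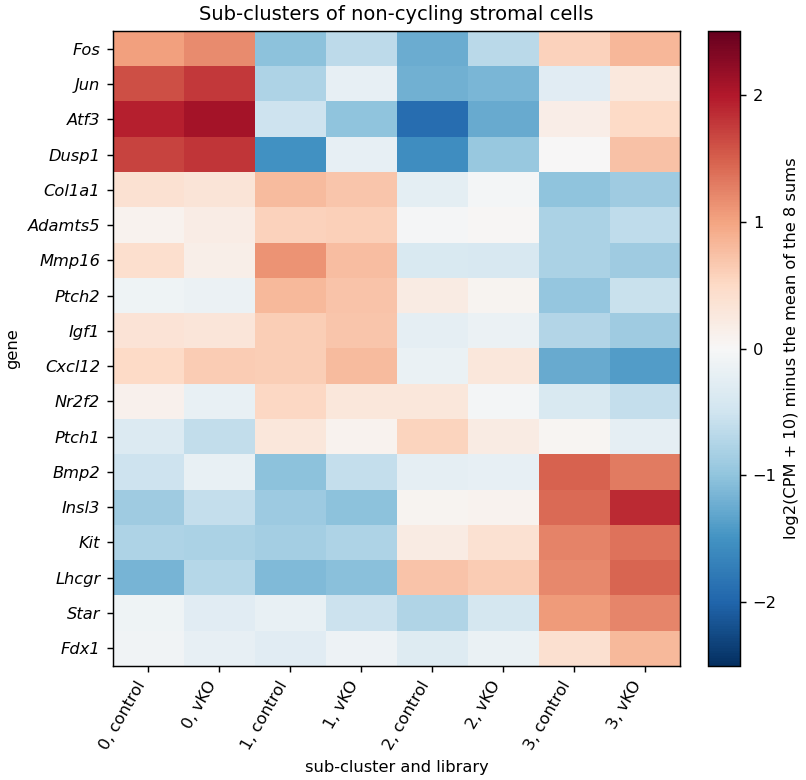
Colour gives log2(CPM + 10) of 18 genes (rows) in each sub-cluster and library (columns), minus the gene's mean over the 8 sums. *Fos*, *Jun*, *Atf3* and *Dusp1* were highest in sub-cluster 0, *Col1a1*, *Adamts5* and *Mmp16* in sub-cluster 1 and *Insl3*, *Kit*, *Lhcgr*, *Star* and *Bmp2* in sub-cluster 3, in both libraries.

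Levels could be read again within sub-clusters. *Bmp5* had 21.1 and 8.05 CPM in sub-cluster 0, 20.9 and 12.3 CPM in sub-cluster 1, 44.9 and 11.95 CPM in sub-cluster 2 and 58.2 and 22.2 CPM in sub-cluster 3, lower in the *Brca1* vKO library in each of the 4. *Nr2f2* was also lower in each, with 598, 799, 675 and 423 CPM in the control and 483, 674, 535 and 360 CPM in the *Brca1* vKO library, a difference below the 1.5-fold limit. *Prlr*, also below the 1.5-fold limit over all members, had 386, 487, 210 and 154 CPM in control and 457, 597, 330 and 163 CPM in *Brca1* vKO cells. The depth of the cells moved with the library in every sub-cluster, from 14616 to 17108 median UMIs in the control and from 11026 to 13326 in the *Brca1* vKO library, and its part was not tested.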

How the data were processed

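The authors digested PD7 testes with collagenase IV and TrypLE and made 1 control and 1 *Brca1* vKO droplet library, from 1 mouse each. The deposited tables hold raw counts of UMIs per gene and barcode, made by the authors with Cell Ranger 6.0.2 on mm10. The submitters' processing notes also name R 4.2.3 and Seurat 4.3.0.1. Values were not normalized. No annotation of cells was used. Members, gene lists and the rule for named genes were chosen with earlier results of these data known. UMIs of the members were summed per library and scaled to CPM. Named genes were, of those with 50 or more UMIs, the 12 at each end of the log2 ratio between genotypes, up to 4 changed and 3 highest genes of each of 36 lists, the 10 leading genes on each side of a comparison of cells, and the 10 leading genes of a sub-cluster with at least 20 CPM. Other genes were named after their values were seen, and a few genes are not reported here. Sertoli-gated cells had a Sertoli sum of at least 10 and stromal, myoid, germ and cycle sums below the limits. Germ cells had a germ sum of at least 2. Myoid cells had a myoid sum of at least 10 and Leydig, Sertoli, pericyte and germ sums below the limits. Leydig-gated cells had a Leydig sum of at least 5 and myoid, Sertoli, pericyte and germ sums below the limits. Myoid and Leydig-gated cells had no stromal minimum and no limit on the cell cycle sum. Sub-clusters used 2000 variable genes, 20 principal components, 20 neighbours and a resolution of 0.5 (leidenalg 0.10.2). Doublets were marked with Scrublet in scanpy 1.11.5, and intervals came from scipy 1.17.1. TMM factors came from edgeR 4.0.16 in an alternative. Scripts were tested on simulated data. All barcodes held 120568700 control and 165062097 *Brca1* vKO UMIs. Gene positions are those of GENCODE on GRCm38. With 1 library per genotype, no test was made. The 16 planned and 2 added alternatives changed the filters, the rule, the doublets, the depth, the scaling and the clustering.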

Additional observations from a re-analysis of the deposited data

Results flagged for a closer look

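Macrophage and inflammatory genes of the named set were lower in *Brca1* vKO members but at least 1.5-fold higher in *Brca1* vKO than control cells of another class. The log2 ratio of *Pf4* (platelet factor 4) was -1.12 in members and 1.48 in cycling stromal, 0.95 in myoid and 2.70 in Leydig-gated cells. For *Cxcl2*, a chemokine gene, it was -1.05 in members and 1.20, 0.61 and 2.49 in the same classes. The complement gene *C1qa* had -1.03 in members and 1.34, 0.82 and 2.93 in the same classes, and *C1qc* had -0.94 and 1.20, 0.62 and 2.47. For *Cxcl10* it was -0.96 in members, 0.74 in cycling stromal, 0.19 in myoid and 0.80 in Leydig-gated cells. In germ cells the log2 ratio was also below 0, at -0.63 for *Pf4*, -0.51 for *Cxcl2* and -0.26 for *Cxcl10*. For *C1qa* and *C1qc* it was -0.33 and -0.28 in germ cells. In Sertoli-gated cells it lay between 0.022 and 0.14 for these genes. In the control members, 95 of 122 UMIs of *Pf4*, 123 of 134 of *Cxcl2*, 92 of 97 of *C1qa* and 84 of 90 of *C1qc* lay in 1 cell. With cells of 5000 to 20000 UMIs the log2 ratio in members was -0.30 for *Pf4* and -0.037 for *C1qa*, and without members rich in blood cell UMIs -0.28 and -0.024. The differences between classes were not tested.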

How the results depend on the processing

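The ratio of the members' shares moved outside its interval with a mitochondrial limit of 5%, to 1.12 of retained cells and 0.932 of cells below the germ limit. With a pseudocount of 1 CPM, the counts of genes were 230 higher and 188 lower between genotypes, 1 higher and 398 lower than in cycling stromal cells, 587 and 881 against myoid cells and 973 and 671 against Leydig cells. The ratio of the members' share of stromal cells lay between 0.885 (stricter rule) and 0.972 (rule applied at 3000 UMIs). A minimum of 200 UMIs left 18 genes lower in the *Brca1* vKO library. The genes lower than in cycling stromal cells were 123 with the stricter rule and 111 with cells of 5000 to 20000 UMIs. A resolution of 0.8 gave 7 sub-clusters (adjusted Rand index 0.675 with the 4 described) and 10 principal components gave 6 (0.456), so the division into 4 depends on these settings. *Cxcl2* reversed to 0.074 and *C1qc* to 0.0017 with cells of 5000 to 20000 UMIs, and to 0.10 and 0.012 without members that held 10 or more blood cell UMIs. Of 312 values of the 24 named genes, 260 moved by no more than the counting error of their ratio. For *S100a9* and *Ngp*, which had 0 control UMIs and so no upper limit of the ratio, a move of at most 1 was allowed instead. Of 312 list medians 301 moved by at most 0.05. The counting error is wide for genes with few UMIs in 1 library, so the 260 include large moves. Among them, without marked doublets, *S100a8* went from 2.20 to 0.68 and *Ngp* from 1.09 to 0.14. The medians of the germ cell niche, complement and chemokine, protease, progenitor, imprinted, and hypoxia and glycolysis lists changed sign in at least 1 setting. The causes were not tested. With marked doublets removed, the log2 ratios were 0.73 for *S100a9*, 0.68 for *S100a8*, 0.14 for *Ngp*, -1.65 for *Hba-a1*, -1.79 for *Hbb-bs*, -1.09 for *Hba-a2* and -0.83 for *Hbb-bt*. No paired analysis was possible because each genotype has 1 library. Genes under 50 UMIs were not compared, the few UMIs of *Brca1* leave a wide interval, and the Leydig comparison rests on 24 control cells.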
